A study of Mus musculus with 31 samples.

Results

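The 8 chemokine genes Ccl2, Ccl7, Ccl12, Cxcl1, Cxcl10, Cxcl12, Cxcl16 and Cx3cl1 were followed through 3 kinds of measurement on mouse spinal cord: bulk RNA of ependymal cells, RNA of single cells, and chromatin accessibility of single cells. They were taken by name from a list drawn up with earlier results of these data known, and are 8 of the 27998 genes of the single-cell RNA matrix. In the bulk table of 16301 genes, 6 of the 8 were used. Ccl12 and Cxcl1 have no row there and are not analysed in bulk.

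Motile cilia are borne by ependymal cells, which form the lining of the cord's central canal. All samples were of the C57BL/6 background. The bulk RNA series had 12 Smart-seq2 libraries, with 2 in each of 6 groups: Foxj1_tdT and Foxj1_Olig2_tdT, each uninjured, at 1 dpi and at 5 dpi, where dpi is taken to mean days post injury. Both genotypes are named for the ependymal gene Foxj1 and the tdT reporter. Foxj1_Olig2_tdT has Olig2 in addition, which encodes a factor that specifies oligodendrocyte precursors. Single-cell RNA came from 6 samples of sorted ependymal cells, 1 for each genotype uninjured and at 2 and 4 weeks after injury. Single-cell ATAC came from 1 sample of non-neuronal cells of uninjured cord, with no genotype in its label. The labels give neither the Cre or promoter that drives the alleles, nor age, sex, kind of injury, or whether replicates were separate animals. The p-values thus cover library-to-library spread, which may be technical.

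Chemokines are small secreted proteins that direct the movement of cells through G protein-coupled receptors. Ccl2, Ccl7 and Ccl12 are ligands of CCR2, the receptor through which monocytes are drawn into injured tissue, and Cxcl1 acts on CXCR2 of neutrophils. Cxcl10 is an interferon-induced ligand of CXCR3 on T cells. Cxcl12 binds CXCR4 and the scavenging receptor ACKR3 and guides progenitors as well as leukocytes. Cxcl16 and Cx3cl1 (fractalkine) are made as membrane-bound proteins that ADAM10 and ADAM17 can shed, and their receptors are CXCR6 and CX3CR1, the latter best known on microglia.

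The genes lie on 4 chromosomes in the RefSeq annotation of GRCm38.p6. Ccl2 (chr11:82035577-82037452), Ccl7 (chr11:82045712-82047525) and Ccl12 (chr11:82101845-82103399) are neighbours, with 8259 bases between the first pair and 54319 between Ccl7 and Ccl12. Cxcl16 lies elsewhere on the same chromosome (chr11:70454389-70459984). Cxcl1 (chr5:90891245-90893121) and Cxcl10 (chr5:92346638-92348889) share chromosome 5, Cxcl12 is at chr6:117168535-117181368 and Cx3cl1 at chr8:94772180-94782427.

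Promoter sequences from RefSeq (GRCm38.p6) matched 5 of the 8 genes: Ccl12, Cxcl1, Cxcl10, Cxcl12 and Cx3cl1. They are shown because chromatin at these starts was measured. Each line gives the 250 bases before the gene's start, 5′ to 3′ on the gene's strand, with capitals marking a match to 1 of 5 motifs searched on both strands. The windows are chr11:82101595-82101844 (+) for Ccl12, chr5:90890995-90891244 (+) for Cxcl1, chr5:92348890-92349139 (−) for Cxcl10, chr6:117168285-117168534 (+) for Cxcl12 and chr8:94771930-94772179 (+) for Cx3cl1.
Cxcl10: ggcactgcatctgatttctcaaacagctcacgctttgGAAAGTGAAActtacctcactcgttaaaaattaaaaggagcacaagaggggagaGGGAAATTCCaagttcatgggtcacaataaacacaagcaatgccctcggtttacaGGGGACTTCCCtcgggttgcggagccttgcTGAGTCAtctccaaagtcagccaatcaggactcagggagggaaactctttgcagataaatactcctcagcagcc
Cxcl1: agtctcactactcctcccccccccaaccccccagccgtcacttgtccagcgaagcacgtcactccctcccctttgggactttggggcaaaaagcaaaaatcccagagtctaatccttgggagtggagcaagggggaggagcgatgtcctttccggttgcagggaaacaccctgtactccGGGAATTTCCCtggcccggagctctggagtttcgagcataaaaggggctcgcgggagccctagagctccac
Ccl12: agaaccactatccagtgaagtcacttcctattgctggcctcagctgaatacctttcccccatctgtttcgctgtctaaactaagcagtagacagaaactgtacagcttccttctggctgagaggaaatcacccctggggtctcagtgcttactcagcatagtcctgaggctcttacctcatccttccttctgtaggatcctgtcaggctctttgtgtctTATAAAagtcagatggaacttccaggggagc
Cxcl12: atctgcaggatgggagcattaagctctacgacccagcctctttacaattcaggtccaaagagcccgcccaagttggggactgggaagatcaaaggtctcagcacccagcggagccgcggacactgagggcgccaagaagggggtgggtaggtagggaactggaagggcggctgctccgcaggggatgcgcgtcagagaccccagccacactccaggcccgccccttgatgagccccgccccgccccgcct
Cx3cl1: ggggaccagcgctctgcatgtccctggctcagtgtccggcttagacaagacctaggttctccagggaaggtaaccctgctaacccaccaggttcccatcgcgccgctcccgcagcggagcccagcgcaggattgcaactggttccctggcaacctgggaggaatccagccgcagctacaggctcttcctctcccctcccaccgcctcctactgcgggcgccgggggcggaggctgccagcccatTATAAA

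The motifs were the NF-kB consensus, the interferon-stimulated response element (ISRE), the AP-1 site (TGANTCA), the STAT site (TTCNNNGAA) and the TATA box (TATAAA). The search and its background used 300-base windows, the 250 shown and the next 50. Among 32817 promoters of that length, 8.46% held the NF-kB consensus, 3.43% the ISRE, 7.81% the AP-1 site, 8.29% the STAT site and 13.6% the TATA box. The Cxcl10 window held 3 matches to the NF-kB consensus, starting 159, 104 and 103 bases before the gene's start (the last pair overlap), an ISRE at 213 and an AP-1 site at 74. In Cxcl1 the NF-kB consensus matched on both strands in 1 overlapping run that starts 71 bases before the gene's start. Ccl12 had a TATA box at 31 bases, Cx3cl1 had 1 at 6 bases, and the Cxcl12 window held none of the 5. Base composition ran as follows: Cxcl12 and Cx3cl1 were both 64.7% G or C with 20 and 19 CG pairs, Cxcl1 58.7% with 10, Cxcl10 50.3% with 10 and Ccl12 48% with 2, where the median promoter had 52.7% and 7. A match is a description of the letters, and no binding was measured here.

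Normalised counts summed to between 12601300 and 13878100 per bulk library. Olig2 lay between 1690.3 and 3960.9 in the 6 Foxj1_Olig2_tdT libraries and between 2.2 and 195.2 in the 6 Foxj1_tdT libraries, in the direction of the labels. The ependymal marker list had 7 of 7 genes above 0 in every library, and its summed level ran from 5713.1 and 7317.4 in the Foxj1_Olig2_tdT 5 dpi libraries to 114103 in an uninjured one. The pair of uninjured Foxj1_tdT libraries correlated at r = 0.989 across genes, against 0.868 to 0.929 for the pairs of the other 5 groups, so results were also computed with that pair entered as 1 library. Markers of infiltrating myeloid cells had 2 of 7 genes in the table, Lyz2 and Ptprc, and their sum was 0 to 19.5 in 10 libraries and 26.0 and 39.6 in the Foxj1_Olig2_tdT 5 dpi pair. Fibroblast markers had 4 of 5 genes and were uneven, at 162.8 to 13847.9, and 8596.2 and 9160.5 in the Foxj1_Olig2_tdT 5 dpi pair. In bulk samples, fewer cells of a type and less RNA per cell cannot be told apart.

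In bulk RNA the CCR2 ligands Ccl2 and Ccl7 were near 0 in uninjured ependymal cells of both genotypes, and Cxcl10 was as well. After injury Ccl2 and Ccl7 rose to between 279.3 and 2283.5 normalised counts in Foxj1_Olig2_tdT cells. In Foxj1_tdT cells Ccl2 rose to 36.3 and 48.5 at 1 dpi and was back at 0 at 5 dpi, and Ccl7 stayed at or below 1.1 in every Foxj1_tdT library. Cx3cl1 was present in all 12 libraries and fell after injury. Cxcl12 and Cxcl16 were low and uneven.

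Ccl2 was listed at 0 in both uninjured Foxj1_tdT libraries and at 1 and 0 in the uninjured Foxj1_Olig2_tdT libraries. At 1 dpi it stood at 36.3 and 48.5 in Foxj1_tdT and at 1461.6 and 1042.8 in Foxj1_Olig2_tdT. At 5 dpi it was listed at 0 in both Foxj1_tdT libraries and was 674.6 and 279.3 in Foxj1_Olig2_tdT. The genotypes thus overlapped only without injury, and Foxj1_tdT cells showed Ccl2 at 1 of the 3 times. Within Foxj1_tdT, Ccl2 rose at 1 dpi by 5.43 ± 0.82 on the log2(value + 1) scale (SE, 95% interval 3.61 to 7.24, limma adjusted p = 0.00112) and fell by 5.43 ± 0.82 from 1 to 5 dpi (adjusted p = 0.00801). In Foxj1_Olig2_tdT the rise over uninjured was 9.77 ± 0.82 at 1 dpi (adjusted p = 0.00019) and 8.27 ± 0.82 at 5 dpi (adjusted p = 5.31e-05). The difference of -1.51 ± 0.82 between its 5 dpi and 1 dpi libraries did not pass (interval -3.32 to 0.31, adjusted p = 0.285). At 1 dpi the mean was 1252.2 ± 296.1 in Foxj1_Olig2_tdT against 42.4 ± 8.6 in Foxj1_tdT (SD, n = 2 each), or 29.5 times higher (log2 difference 4.85, adjusted p = 0.0227). That call ended without any 1 of 6 libraries, the uninjured Foxj1_tdT pair and both 1 dpi pairs, and also when that uninjured pair counted as 1 library (adjusted p between 0.0582 and 0.0823). The rise at 1 dpi was not shown to differ between genotypes (interaction 4.35 ± 1.15, adjusted p = 0.0799), whereas at 5 dpi it did (8.27 ± 1.15, adjusted p = 0.00453).

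Ccl7, the neighbour of Ccl2, was between 0 and 1.1 in all 6 Foxj1_tdT libraries and at 0 in both uninjured Foxj1_Olig2_tdT libraries. It was 1028.5 and 1682.8 in Foxj1_Olig2_tdT at 1 dpi and 2283.5 and 414 at 5 dpi. Every injured Foxj1_Olig2_tdT library therefore lay above every other library, and the values at 5 dpi were more spread than those at 1 dpi. The log2 rise in Foxj1_Olig2_tdT was 10.36 ± 0.99 at 1 dpi (limma adjusted p = 0.000297) and 9.93 ± 0.99 at 5 dpi (adjusted p = 5.69e-05). Between its 5 and 1 dpi libraries the difference was -0.44 ± 0.99 (interval -2.64 to 1.77, adjusted p = 0.841). In Foxj1_tdT no change in Ccl7 passed, with log2 differences from uninjured of 0.11 at 1 dpi and 0.58 at 5 dpi. The rise differed between genotypes at 1 dpi (interaction 10.25 ± 1.40, adjusted p = 0.00831) and at 5 dpi (9.35 ± 1.40, adjusted p = 0.00573). Ccl7 entered the tests only because it is high in injured Foxj1_Olig2_tdT libraries. Its p-values in comparisons that use those libraries are therefore descriptive only. The 1 dpi interaction missed the threshold without uninjured Foxj1_tdT replicate 2 (adjusted p = 0.0589) and when that pair counted as 1 library (adjusted p = 0.0520). Lyz2, a marker of myeloid cells, was listed at 0 in both Foxj1_Olig2_tdT 1 dpi libraries, where Ccl2 and Ccl7 were high, and at 28.8 and 24.1 in the 5 dpi pair. Other markers were not all absent at 1 dpi. In that 1 dpi pair Ptprc was 3.4 and 1, and microglial P2ry12 was 0 and 49.1 while Csf1r was 0 in both. The pericyte gene Kcnj8 was 228.4 and 69.3 there, beside 85.2 and 0 in Foxj1_tdT at 1 dpi, while Rgs5 was 0 in both. Cspg4, of the oligodendrocyte precursor (OPC) list, was 146.3 and 133.9 beside 2 and 18.3. Some markers of other cell types were also higher in the Foxj1_Olig2_tdT 5 dpi pair. The OPC list had 5 of 5 genes above 0 there, with sums of 1562 and 930.1, against 112.8 and 1 in uninjured and 313.6 and 155.3 in 1 dpi Foxj1_Olig2_tdT and 0 to 400.8 in Foxj1_tdT. Its gene Sox10 was 591.6 and 765.4 in the pair and 0 to 6.3 elsewhere, while Pdgfra was 437.1 and 1.1 in the pair. C1ql1 of that list went the other way, at 9 and 2.2 in the pair against 100.3 and 300.4 in Foxj1_tdT at 5 dpi. Of the fibroblast genes, Col1a1 was 2467.9 and 2583.2 in the pair and 841.9 and 673 in Foxj1_tdT at 5 dpi, with 1.7 to 25.1 elsewhere. Col3a1 was 994.5 and 313.2, higher in replicate 1 like Ccl2 and Ccl7. Col1a2 was 5696.9 and 5699.8 in the pair beside 5437.8 and 3700.7 in Foxj1_tdT at 5 dpi. Dcn went the other way, at 1.2 and 0 beside 107.5 and 34.6. The part of these cell types in the Ccl2 and Ccl7 values was not tested.

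**Figure D1:**
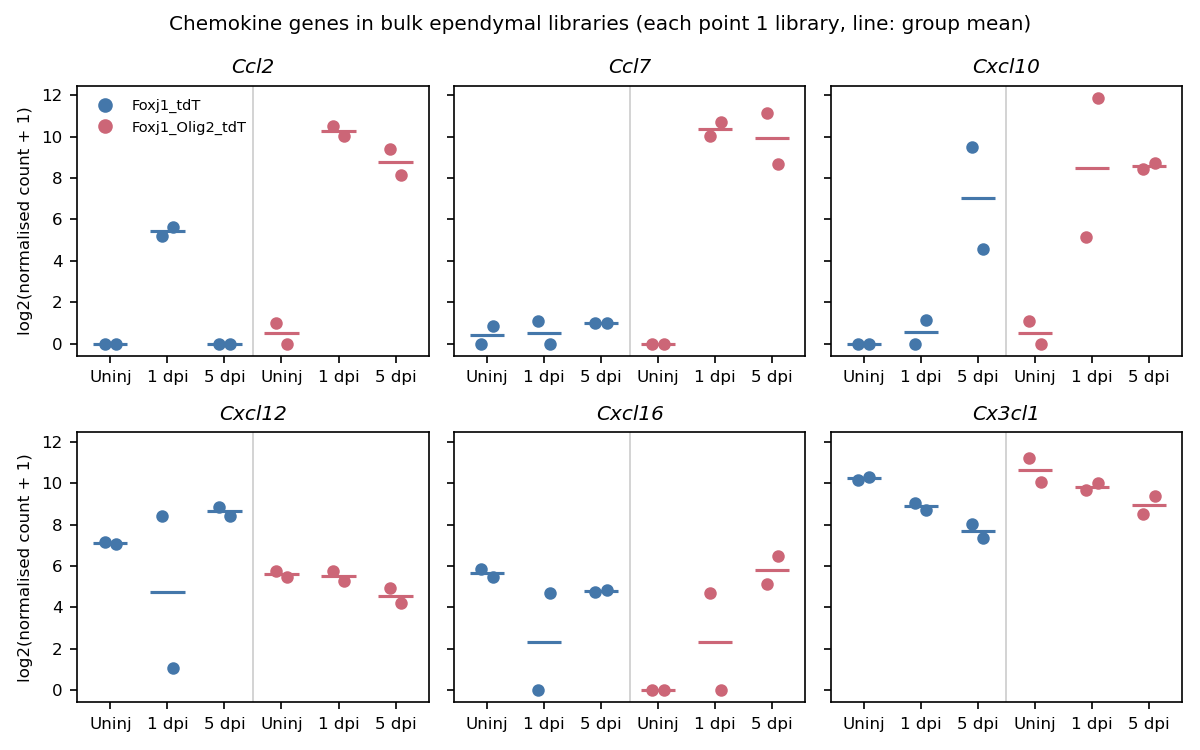
Normalised count (vertical axis, log2(value + 1) scale) of the 6 chemokine genes in each of the 12 bulk libraries, by group, with a point per library and a line at the group mean. Ccl2 and Ccl7 are high in the injured Foxj1_Olig2_tdT libraries, and Cx3cl1 is above 160 in every library and lowest at 5 dpi.

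Cxcl10 was between 0 and 1.1 in the 4 uninjured libraries and at 0 and 1.2 in Foxj1_tdT at 1 dpi. It was 34.5 and 3700.2 in Foxj1_Olig2_tdT at 1 dpi, 712.2 and 23.0 in Foxj1_tdT at 5 dpi, and 346.7 and 429.6 in Foxj1_Olig2_tdT at 5 dpi. Replicates of a group differed by up to 2 orders of magnitude, and at 5 dpi the genotypes overlapped. Over uninjured, Cxcl10 rose by 7.03 ± 2.02 in Foxj1_tdT at 5 dpi (limma adjusted p = 0.0317), and in Foxj1_Olig2_tdT by 7.97 ± 2.02 at 1 dpi (adjusted p = 0.0401) and 8.06 ± 2.02 at 5 dpi (adjusted p = 0.0131). These 3 calls were not stable. The Foxj1_tdT call ended without its 5 dpi replicate 1 (adjusted p = 0.205), without either uninjured Foxj1_tdT library (0.150), without either Foxj1_Olig2_tdT 5 dpi library (0.0531 and 0.0532), with a pseudocount of 8 (0.115) and when the uninjured pair counted as 1 library (0.151). The Foxj1_Olig2_tdT 1 dpi call ended in 13 of 18 settings, among them without its replicate 2, where the log2 rise was 4.61 (adjusted p = 0.190). Its 5 dpi call ended without uninjured replicate 2 or either 5 dpi library (adjusted p between 0.0526 and 0.0763). Between genotypes the difference at 1 dpi was 7.93 ± 2.02 and missed the threshold (adjusted p = 0.0838), though without Foxj1_Olig2_tdT 1 dpi replicate 1 it was 11.29 and passed (adjusted p = 0.0296). Ifit1, an interferon-induced gene, was 612.9 and 3154.4 in the Foxj1_Olig2_tdT 1 dpi pair and 991.4 and 138.3 in the Foxj1_tdT 5 dpi pair. In Foxj1_Olig2_tdT at 5 dpi it was 118.7 and 1.1, where Cxcl10 was 346.7 and 429.6, and in Foxj1_tdT at 1 dpi it was 48.8 and 154.6, where Cxcl10 was 0 and 1.2.

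Cxcl12 was 143 and 132.2 in uninjured Foxj1_tdT, 338.5 and 1.1 at 1 dpi, and 456.1 and 343.1 at 5 dpi. Foxj1_Olig2_tdT libraries had 52.2 and 43.7 uninjured, 53.5 and 37.5 at 1 dpi, and 29.2 and 17.7 at 5 dpi. Without injury and at 5 dpi, every Foxj1_Olig2_tdT library lay below every Foxj1_tdT library. No comparison of Cxcl12 passed the test in the full set: at 5 dpi the difference between genotypes was -4.06 ± 1.74 (interval -7.94 to -0.18, limma adjusted p = 0.186). Foxj1_tdT 1 dpi replicate 2 stood apart from its partner, at 1.1. Without either 1 of the Foxj1_tdT 1 dpi pair, the same 5 dpi difference passed (adjusted p = 0.00440 without replicate 1 and 0.00246 without replicate 2). With only the low library left in that group, 4 further comparisons passed, among them a fall of Cxcl12 at 1 dpi of -6.04 (adjusted p = 0.00118) and a genotype difference at 1 dpi of 4.45 (adjusted p = 0.0237). Dcn, a fibroblast gene, was 13599.8 in replicate 1 of that pair and 0.5 in replicate 2, while the other 3 fibroblast markers did not share this split. Its part in the Cxcl12 values was not tested.

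Of the membrane-bound pair, Cxcl16 was low throughout, at 56 and 43 in uninjured Foxj1_tdT, 0 and 24.9 at 1 dpi, and 25.9 and 27.3 at 5 dpi. Foxj1_Olig2_tdT had it at 0 in both uninjured libraries, at 24.5 and 0 at 1 dpi, and at 34.2 and 88.6 at 5 dpi. It rose over uninjured in Foxj1_Olig2_tdT at 5 dpi, by 5.81 ± 1.70 (limma adjusted p = 0.0259). That call ended without any 1 of the 4 libraries compared (adjusted p between 0.0693 and 0.145). The uninjured difference between genotypes, -5.65 ± 1.70, missed the threshold (adjusted p = 0.0730) and passed without any 1 of the 4 libraries taken at 1 dpi (adjusted p between 0.0422 and 0.0454). The 5 dpi rise was not shown to differ between genotypes (interaction 6.67 ± 2.40, adjusted p = 0.123). Myeloid marker sums were highest in the same Foxj1_Olig2_tdT 5 dpi pair, at 39.6 and 26.0, and their part was not tested.

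Cx3cl1 was 1133.5 and 1267.9 in uninjured Foxj1_tdT, 532.5 and 414.8 at 1 dpi, and 258.4 and 160.1 at 5 dpi. Foxj1_Olig2_tdT libraries stood at 2384.5 and 1077.2 uninjured, 813.6 and 1022.9 at 1 dpi, and 361.1 and 667.7 at 5 dpi. Within each genotype the libraries of successive times did not overlap. In Foxj1_tdT the gene fell to 0.394 of the uninjured mean at 1 dpi (log2 difference -1.35 ± 0.42, limma adjusted p = 0.0396) and to 0.174 at 5 dpi (-2.55 ± 0.42, adjusted p = 0.00249). In Foxj1_Olig2_tdT it fell to 0.297 at 5 dpi (-1.70 ± 0.42, adjusted p = 0.0125), and at 1 dpi the difference of -0.81 ± 0.42 did not pass (interval -1.76 to 0.13, adjusted p = 0.285). Only the Foxj1_tdT 5 dpi call held in every setting tried. The Foxj1_tdT 1 dpi call ended without any 1 of 6 libraries, the uninjured Foxj1_tdT pair and both 1 dpi pairs (adjusted p between 0.0537 and 0.188), and when the uninjured pair counted as 1 library (0.168). The Foxj1_Olig2_tdT 5 dpi call ended without its uninjured replicate 1 (0.0848) or 5 dpi replicate 1 (0.103). The fall was not shown to differ between genotypes at 5 dpi (interaction 0.85 ± 0.60, interval -0.49 to 2.18, adjusted p = 0.434). At 5 dpi Foxj1_Olig2_tdT lay 2.46 times above Foxj1_tdT without passing (log2 difference 1.27 ± 0.42, adjusted p = 0.0973), and this passed when either uninjured Foxj1_Olig2_tdT library was left out (0.0491 without replicate 1 and 0.0477 without replicate 2). The summed ependymal markers were lower at 5 dpi too, at 26519.7 and 30266.2 against 89608.6 and 90153 in uninjured Foxj1_tdT. In Foxj1_Olig2_tdT they were 7317.4 and 5713.1 at 5 dpi against 114103 and 104956 uninjured, a deeper fall than that of Cx3cl1 there. The part of these markers in the fall of Cx3cl1 was not tested.

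**Figure D2:**
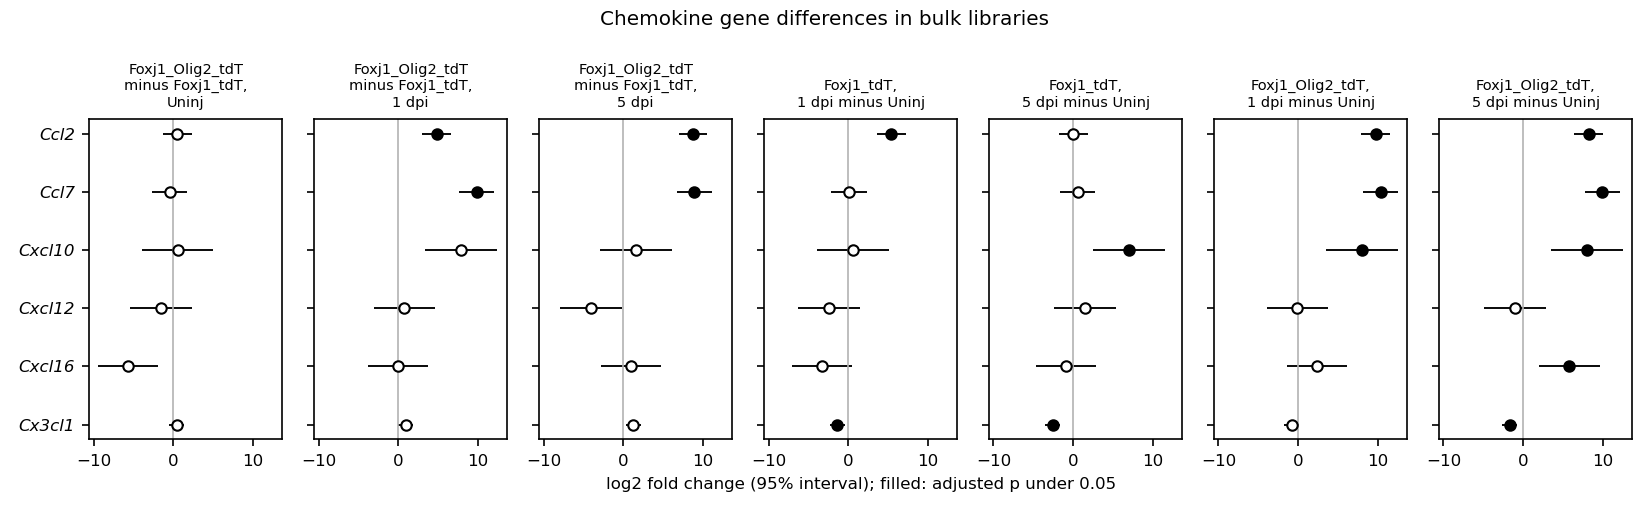
Log2 fold change on the log2(value + 1) scale (horizontal axis) with its 95% interval for each of the 6 chemokine genes between genotypes at each time and over uninjured within each genotype, from 1 limma fit of 12 libraries. Filled points passed an adjusted p under 0.05: Ccl2 and Ccl7 lie between 8.27 and 10.36 in injured over uninjured Foxj1_Olig2_tdT, and the Cx3cl1 points that passed lie between -2.55 and -1.35.

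Set beside all 15811 genes tested, the 6 genes were called as follows, with Ccl2, Ccl7 and Cxcl10 passing the filter on low values only through injured libraries. Ccl7 passed it only through the injured Foxj1_Olig2_tdT libraries, where it is high. Counts that include Ccl7 between genotypes, within Foxj1_Olig2_tdT or for the interaction are therefore descriptive only. So are counts over uninjured that include Ccl2 or Cxcl10. Between genotypes 0 of 6 were called without injury, where 7.79% of all genes were, and 1 member had an unadjusted limma p under 0.05. At 1 dpi it was 2 of 6, both higher, beside 1.84% of all genes in either direction and 1.29% higher. At 5 dpi it was again 2 of 6, both higher, beside 9.23% and 3.36%. Over uninjured, Foxj1_tdT had 2 of 6 called at 1 dpi beside 27.4%, with 1 higher (15.4% of all genes) and 1 lower (12%). It had 2 of 6 at 5 dpi beside 23%, with 1 higher (13.8%) and 1 lower (9.21%), and these shares are near the background. From 1 to 5 dpi 1 of 6 was called, lower, beside 5.85% and 3.11%. In Foxj1_Olig2_tdT 3 of 6 were called at 1 dpi, all higher, beside 8.09% and 5.93%. At 5 dpi 5 of 6 were called beside 31.2%, with 4 higher (17.2%) and 1 lower (14%). From 1 to 5 dpi it had 0 of 6 beside 13.9%, with 0 at an unadjusted limma p under 0.05. For the interaction the count was 1 of 6, higher, beside 2.77% and 0.923% at 1 dpi, and 2 of 6, both higher, beside 7.28% and 2.64% at 5 dpi. The median log2 difference of the 6 genes over uninjured was 5.15 at 1 dpi and 6.94 at 5 dpi in Foxj1_Olig2_tdT, and -0.62 and 0.29 in Foxj1_tdT, where the median of all genes lay between 0 and 0.12. These medians are descriptive only, since Ccl2, Ccl7 and Cxcl10 passed the filter through injured libraries alone. The comparisons within a genotype share their uninjured libraries.

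Of 29 further chemokine ligands 7 were in the table and 6 were tested, and only Foxj1_Olig2_tdT at 5 dpi over uninjured gave calls: the homeostatic ligands Cxcl14 (4.31 ± 1.47, limma adjusted p = 0.0489) and Ccl27a (-1.31 ± 0.28, adjusted p = 0.00591). Cxcl14 was 1 and 115.6 uninjured and 193.2 and 469.3 at 5 dpi, so the size of its rise rests largely on the uninjured library at 1. Of 23 receptors 12 were in the table and 11 were tested. At 1 dpi in Foxj1_tdT 3 of 11 were called, beside 27.4% of all genes, with Ackr3, the scavenging receptor of Cxcl12, higher by 1.30 ± 0.27 (adjusted p = 0.00688) and Cxcr4, its signalling receptor, lower by a log2 difference of -1.69 ± 0.51 (adjusted p = 0.0342). At 5 dpi in Foxj1_Olig2_tdT 4 of 11 were called, 2 in each direction, beside 31.2%. Among them Cxcr6, the receptor of Cxcl16, went from 0 in both uninjured libraries to 769.4 and 345.1 at 5 dpi (9.01 ± 1.66, adjusted p = 0.00255). Ccr2, the receptor of Ccl2, Ccl7 and Ccl12, lay between 0 and 40.9 in the 12 libraries. Of the proteases, 4 of 6 were in the table and tested, and at 5 dpi 2 of 4 were called in Foxj1_tdT (23% of all genes) and 3 of 4 in Foxj1_Olig2_tdT (31.2%), all higher. Adam10, which sheds Cx3cl1 and Cxcl16, rose at 5 dpi by 1.40 ± 0.25 in Foxj1_tdT (adjusted p = 0.00356) and by 1.63 ± 0.25 in Foxj1_Olig2_tdT (adjusted p = 0.000864), to 4623.4 and 5081.1 in the latter. Adam17 rose in Foxj1_Olig2_tdT at 5 dpi by 1.75 ± 0.37 (adjusted p = 0.00548).

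Some genes of the pathways known to induce chemokines rose after injury in both genotypes. The share of all genes called over uninjured, in either direction, was 27.4% and 23% in Foxj1_tdT at 1 and 5 dpi and 8.09% and 31.2% in Foxj1_Olig2_tdT. The shares called higher were 15.4%, 13.8%, 5.93% and 17.2% in that order. Of 16 NF-kB pathway genes, 5 rose in Foxj1_tdT at 1 dpi and 4 at 5 dpi, and 2 rose in Foxj1_Olig2_tdT at 1 dpi, with 3 higher and 1 lower (Chuk) at 5 dpi. Called in either direction, these counts stand near the shares of all genes in the same 4 comparisons. Bcl3, a nuclear NF-kB cofactor, led all 4 comparisons, with rises of 7.67 ± 0.80, 6.25 ± 0.80, 6.73 ± 0.80 and 5.98 ± 0.80 in that order (limma adjusted p between 0.000162 and 0.000822). It was 218.7 and 187.6 in Foxj1_tdT at 1 dpi and 218.8 and 207.8 in Foxj1_Olig2_tdT at 1 dpi. The part of NF-kB genes in the chemokine values was not tested. Of 15 receptors of inflammatory cytokines, 5 and 5 were called in Foxj1_tdT at 1 and 5 dpi and 2 and 7 in Foxj1_Olig2_tdT, so the counts of 5 of 15 stand near the shares of all genes. In Foxj1_tdT 3 were higher and 2 lower at 1 dpi, and 4 higher and 1 lower at 5 dpi. In Foxj1_Olig2_tdT 2 were higher at 1 dpi, and 5 higher and 2 lower at 5 dpi. Osmr, the receptor of oncostatin M, rose in all 4, by 8.17 to 9.43 on the log2 scale (SE 0.64). Il6st was lower in Foxj1_tdT at 1 dpi (-1.22 ± 0.30, limma adjusted p = 0.0133). Of 15 interferon response genes, 5 rose at 1 dpi in each genotype, and at 5 dpi 3 rose in Foxj1_tdT and 1 in Foxj1_Olig2_tdT. Both 5 dpi counts lie below the shares of all genes called in either direction. Ifit1 rose by 8.83 ± 1.72 in Foxj1_Olig2_tdT at 1 dpi (adjusted p = 0.0132) and by 8.08 ± 1.72 in Foxj1_tdT at 5 dpi (adjusted p = 0.00834). Of 13 other cytokine genes 7 were tested, with Tgfb2 called in Foxj1_tdT (1.84 ± 0.42, adjusted p = 0.0116) and Il33 in Foxj1_Olig2_tdT (2.97 ± 0.90, adjusted p = 0.0297), each at 5 dpi over uninjured. Between genotypes at 5 dpi, 1 of 16 NF-kB genes was called (Nfkb2, 2.25 ± 0.53, adjusted p = 0.0272), beside 9.23% of all genes. So was 1 of 15 interferon genes (Gbp2, -1.66 ± 0.36, adjusted p = 0.0194). Without injury 0 of 16 NF-kB and 3 of 15 interferon genes were called, beside 7.79% of all genes. The latter were Isg15 (-3.47 ± 0.89), Stat2 (1.91 ± 0.50) and Gbp2 (1.39 ± 0.36), with limma adjusted p between 0.0428 and 0.0455. Gbp2 thus differed in opposite directions without injury and at 5 dpi.

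The tested genes most like each member over the 12 libraries were found by the root mean square difference of centred log2 values, where a smaller number is a closer pattern. For Cx3cl1 they were Ppp1r16a (0.367), Acsl3 (0.399) and Slc6a9 (0.427), against its own spread of 1.05. For Ccl2 they were Prkg2 (1.64), Pkn3 (1.70) and Hpdl (1.99), against a spread of 4.26, and for Ccl7 Tnni1 (2.11), Galnt6 (2.43) and Aqp5 (2.54), against 4.6. Nothing is said of shared function or control.

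The single-cell RNA matrix held 3500 cells from 6 library codes (017, 018, 019, 020, 072 and 073), and the codes could not be tied to genotype or time. Values are therefore given per code, with no comparison between conditions. Of these, 3285 are listed in the authors' table of cells and 215 are not, 176 of them in code 020; the former are called kept and the latter left out. The codes held 337 to 992 kept cells with a median of 2714 to 7397 UMIs each, and 7 barcodes occurred in more than 1 code. All 8 genes had rows. Levels are a gene's UMIs over all UMIs of the same cells (CPM), and all intervals are 95% and cover counting error only.

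Of the 8 genes, Cx3cl1 was the one most often seen in kept cells, Cxcl12 came next, and the inducible chemokines were nearly absent. Cx3cl1 had 428 UMIs in 368 of 3285 kept cells (11.2%, exact binomial interval 10.1 to 12.3). It had 0 UMIs in the 215 cells left out, which allows a share of up to 1.40%, although their median depth was 12207 UMIs against 5722 in kept cells. The level was 11.4 CPM in code 017 (exact Poisson interval 5.88 to 19.9), 10.7 in 018 (8.11 to 13.9), 26.0 in 019 (19 to 34.6), 25.9 in 020 (19.4 to 33.9), 20.3 in 072 (17.4 to 23.6) and 28.9 in 073 (23.3 to 35.4). Code 018 thus lay below 019, 020, 072 and 073 with intervals that do not meet. Shares ran from 3.04% in 017 to 18.9% in 073. After thinning every cell to 2000 UMIs they were 2.35% in 017, 3.02% in 018, 6.09% in 019, 5.15% in 020, 4.64% in 072 and 5.56% in 073, with 64 shallower cells left out of code 017, 35 of 018, 27 of 019, 7 of 020 and 0 of the others.

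Cxcl12 had 105 UMIs in 93 kept cells (2.83%), at 8.54 CPM in code 017, 5.94 in 018, 2.26 in 019, 2.93 in 020, 6.01 in 072 and 1.57 in 073. Its interval in code 073 (0.51 to 3.67) did not meet those of 018 (4.04 to 8.43) and 072 (4.46 to 7.92). The 3 codes lowest in Cxcl12 (019, 020 and 073) were the 3 highest in Cx3cl1, and the clusters that hold their cells differ as well. Cxcl16 had 33 UMIs in 27 kept cells (0.822%), Cxcl10 22 UMIs in 10 cells, Ccl2 16 UMIs in 4 cells, Cxcl1 7 UMIs in 3 cells, and Ccl7 and Ccl12 1 UMI each. Of the Ccl2 UMIs in kept cells, 11 were in 1 cell of code 019, which also had ependymal transcripts (27 UMIs of Rarres2 and 6 of Ccdc153) and no UMI of Lyz2, C1qa or Ptprc. In 13 kept cells Cxcl12 and Cx3cl1 were seen together.

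**Figure D3:**
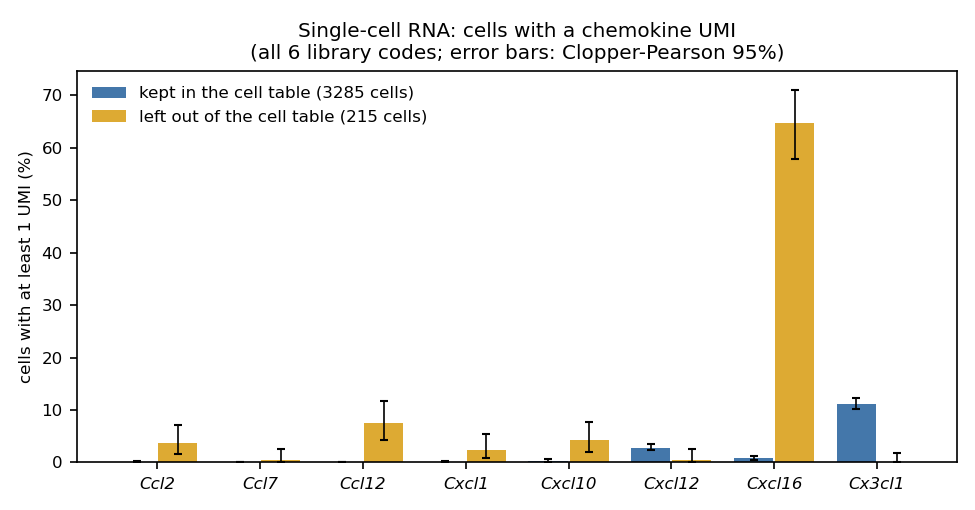
Share of cells with at least 1 UMI of each chemokine gene (percent) in the single-cell RNA data, all 6 library codes together, for kept cells and for the cells left out of the cell table, with exact binomial 95% intervals. Cx3cl1 is seen in 11.2% of kept cells and in none of those left out, while Cxcl16 is at 64.7% of the cells left out and 0.822% of those kept.

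Cells were clustered with the 8 genes left out of the clustering, and clusters were named only from a fixed marker list. Of 17 clusters, 8 were ependymal-like with 2198 cells, 1 oligodendrocyte-like with 127 cells and 1 OPC-like with 58 cells, and 7 stayed unnamed. Cx3cl1 was highest in cluster 14 at 50.7 CPM (39.8 to 63.6; 184 cells, 172 of them in code 073, led by Pla2g7) and cluster 9 at 35.5 CPM (28.0 to 44.6; 400 cells, 204 in code 019 and 181 in 020, led by Ppp1r1b). Both are unnamed, although 7 of 7 ependymal markers were detected in each. In ependymal-like clusters it ranged from 9.70 to 25.3 CPM. It was 2.79 CPM in oligodendrocyte-like cells (4 of 127 cells), 16.9 in OPC-like cells (6.81 to 34.9) and 0.44 in cluster 12, so the gene was not seen at an even background across cells. Cluster 10, led by Gfap and S100a6 and with 110 of its 161 cells in code 018, had 6.58 CPM (2.84 to 13.0). Since clusters 9 and 14 lie mainly in 3 codes, the order of the codes for Cx3cl1 and the make-up of their cells cannot be told apart.

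Cxcl12 was seen in 69 of 2198 ependymal-like cells (3.14%, 5.45 CPM) and in 0 of 127 oligodendrocyte-like cells, which allows up to 2.36%, and 0 of 58 OPC-like cells, which allows up to 5.17%. Of the oligodendrocyte-like cells 93 were in code 073 and 33 in 020, where all kept cells had Cxcl12 in 1.39% and 1.78%, so cell type and code cannot be told apart here. The highest level of Cxcl12 was in cluster 10, unnamed, at 11.5 CPM (6.30 to 19.3) and in 6.83% of cells. Cxcl16 was seen in 13 of 2198 ependymal-like cells (0.591%, median 5723 UMIs) and in 1 of 127 oligodendrocyte-like cells (0.787%, interval 0.0199 to 4.31, median 9696 UMIs), which is too few to compare the types. Cxcl10 had 10 of its 22 kept UMIs in cluster 11, an ependymal-like cluster led by the interferon-induced genes Ifit3, Ifit1 and Isg15, at 13.3 CPM (6.39 to 24.5). Those UMIs were in 3 of 104 cells, 7 of them in 1 cell. All 7 UMIs of Cxcl1 in kept cells were in cluster 7, which was led by the immediate-early genes Egr1 and Fos with Socs3, and the cell with 5 of them had no UMI of Foxj1.

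Cluster 12, led by Lyz2, Ctss, Gpnmb and Tyrobp, held 187 cells, of which 173 were in code 020 and 2 were kept. Here Cxcl16 reached 190 CPM, in 74.3% of cells, and Ccl12 was at 16.3 CPM, Cxcl10 at 12.3, Ccl2 at 11 and Cxcl1 at 7.92. The cells left out of the cell table as a whole had 428 UMIs of Cxcl16 in 139 cells, 37 of Ccl12 in 16, 27 of Cxcl10 in 9, 25 of Ccl2 in 8, 18 of Cxcl1 in 5 and 6 of Ccl7 in 1. The cell with all 6 UMIs of Ccl7 also had 9 of those of Cxcl1 and 3 of those of Ccl2, and it held 40 UMIs of Lyz2 beside 31 of Rarres2 and 7 of Ccdc153, transcripts of ependymal cells. Of the cells with Ccl12, 11 of 16 also had Cxcl16, as did 7 of 8 with Ccl2. For 6 of the 8 genes, all but Cx3cl1 and Cxcl12, the matrix therefore held a higher CPM in the cells the authors left out than in those they kept.

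**Figure D4:**
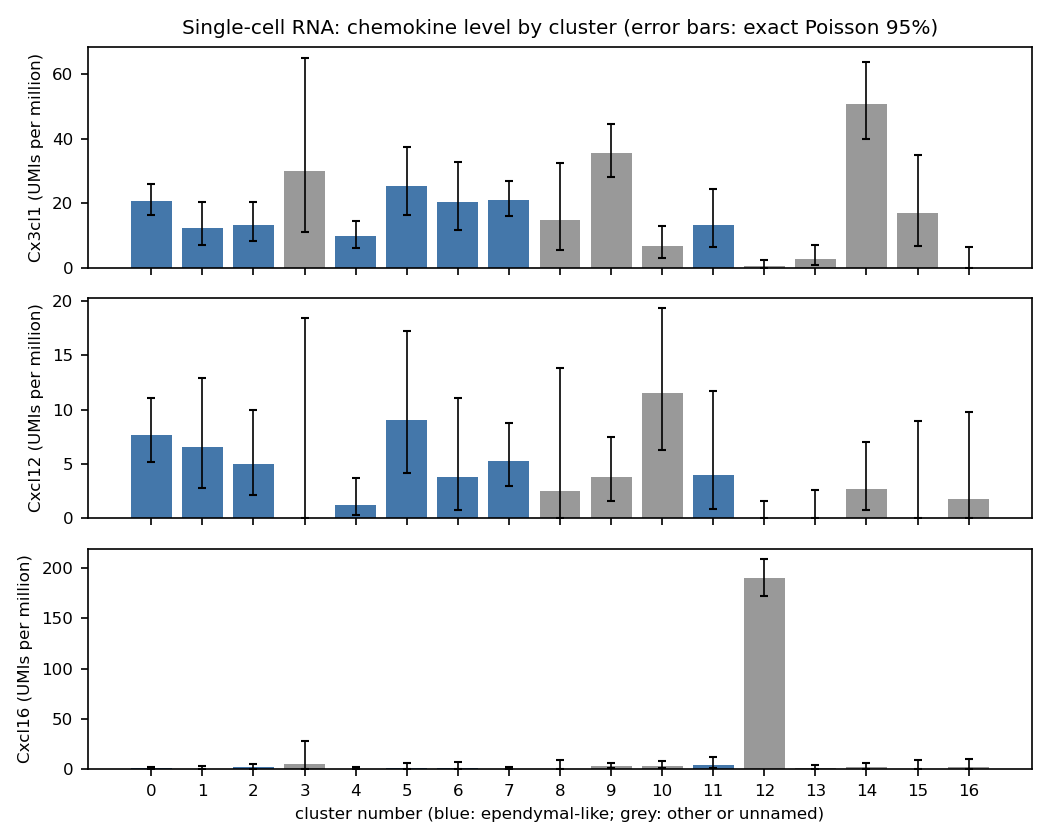
Level of Cx3cl1, Cxcl12 and Cxcl16 (CPM, vertical axes with their own scales) in each of the 17 clusters of single cells, ependymal-like ones in blue, with exact Poisson 95% intervals. Cxcl16 is concentrated in cluster 12, at 190, whereas Cx3cl1 is spread over the ependymal-like clusters and highest in clusters 14 and 9.

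Among the other chemokine genes in kept cells, Ccl27a had 1725 UMIs in 36.7% of cells and Ccl25 530 UMIs in 14.0%. The receptors of Cxcl12 were also present there, Cxcr4 in 13.1% and Ackr3 in 12.5% of kept cells. Cells left out instead carried Ccl4 (1022 UMIs against 21 in kept cells) and Ccl3 (981 against 17), which attract monocytes, and 48.4% of them had a UMI of Cx3cr1, the receptor of Cx3cl1.

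Chromatin accessibility of uninjured cord was read from 1084 cells and 96670 peaks on mm10, with the authors' class of each cell. The classes were 3 ependymal (EP1, EP2 and EP3 with 301, 290 and 163 cells), ACNT1 and ACNT2 with astrocyte markers (111 and 62), OPC (67), VEC with endothelial markers (50) and PER (40). Cut sites in peaks of the ependymal markers were 679, 675 and 782 CPM in EP1 to EP3 and 280 to 333 elsewhere. The PER class had the highest pericyte marker level, 133 CPM, beside 248 CPM at OPC markers. With 1 sample there was no test, and intervals cover counting error only. Within 2 kb of the genes lay 11 peaks for 7 of the 8 genes, and Ccl12 had none within 2 kb or 10 kb.

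At the start of Cx3cl1 the peak chr8:94770874-94774450 had 50.2, 57.3 and 59.3 CPM of cut sites in EP1, EP2 and EP3, above 95.4% to 96.9% of all peaks, of which it is among the longer at 3576 bases. Pooled, the ependymal classes stood at 56.6 CPM (53.7 to 59.6) and the astrocyte classes at 16.0 (12 to 20.8). The peak was cut in 46.9% of ependymal and 12.7% of astrocyte cells, and in 20.1% and 4.61% after thinning each cell to 5000 cut sites. It was as open in OPC, at 54.7 CPM (46.0 to 64.6), and stood at 74.5 CPM in VEC (51.6 to 104). A second Cx3cl1 peak inside the gene, chr8:94781632-94782336, had 7.27 CPM in ependymal classes (6.25 to 8.41) and 2.36 in astrocyte classes (1.02 to 4.66).

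The Cxcl12 start (chr6:117166733-117169868) was open at 15.2 CPM in ependymal classes (13.7 to 16.8), 7.09 in astrocyte classes (4.54 to 10.6) and 101 in VEC (73.8 to 134). The peak over the end of Ccl2 with the lower coordinate (chr11:82034955-82035893) was open in ependymal cells of uninjured cord, at 22.8 CPM (21.0 to 24.7) and in 24.8% of cells, although bulk Ccl2 was at 0 in both uninjured Foxj1_tdT libraries. Among the ependymal classes it was 13.8 in EP1, 28.1 in EP2 and 14.8 in EP3. Astrocyte classes had 16.5 CPM (12.5 to 21.5), and at equal depth the shares were close, at 8.35% of ependymal and 6.58% of astrocyte cells. No cut was seen there in the 50 VEC cells, which allows up to 6% of cells.

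The peak at Ccl7 (chr11:82045430-82045953) was far less cut, at 3.54 CPM in ependymal classes (2.84 to 4.36), 6.21 in astrocyte classes (3.84 to 9.49) and 37.1 in PER (25.9 to 51.7). At the start of Cxcl1 (chr5:90890868-90891554), which holds the NF-kB match shown above, the level was 1.89 CPM in ependymal classes (1.39 to 2.51), 32.9 in PER (22.4 to 46.7) and 21.9 in VEC (10.5 to 40.3). The Cxcl10 start (chr5:92348680-92349182), whose sequence holds the ISRE and NF-kB matches, had 4.34 CPM in ependymal classes (3.56 to 5.24) and 1.18 in astrocyte classes (0.32 to 3.03), and was cut in 6.23% of ependymal cells. It stood higher in VEC, at 17.5 CPM (7.57 to 34.5, in 2 of 50 cells), and was 6.37 in PER (2.34 to 13.9) and 1.57 in OPC. For Cxcl16 the larger peak lay outside the gene, 1786 bases from it (chr11:70451613-70452603), with 31.1 CPM in ependymal classes, 65.8 in PER and 78.9 in VEC. In the EP1 to EP3 classes the share of all peaks with a lower level was 79.8% to 89.2% for Ccl2, 77.5% to 82.3% for Cxcl12, 38.2% to 60.6% for Cxcl10, 30.9% to 57.0% for Ccl7 and 20.9% to 41.4% for Cxcl1. The Ccl2 peak, 938 bases long against 502 to 686, thus ranked above those of Ccl7, Cxcl1 and Cxcl10 in each ependymal class, while bulk RNA of Ccl2, Ccl7 and Cxcl10 was near 0 without injury.

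**Figure D5:**
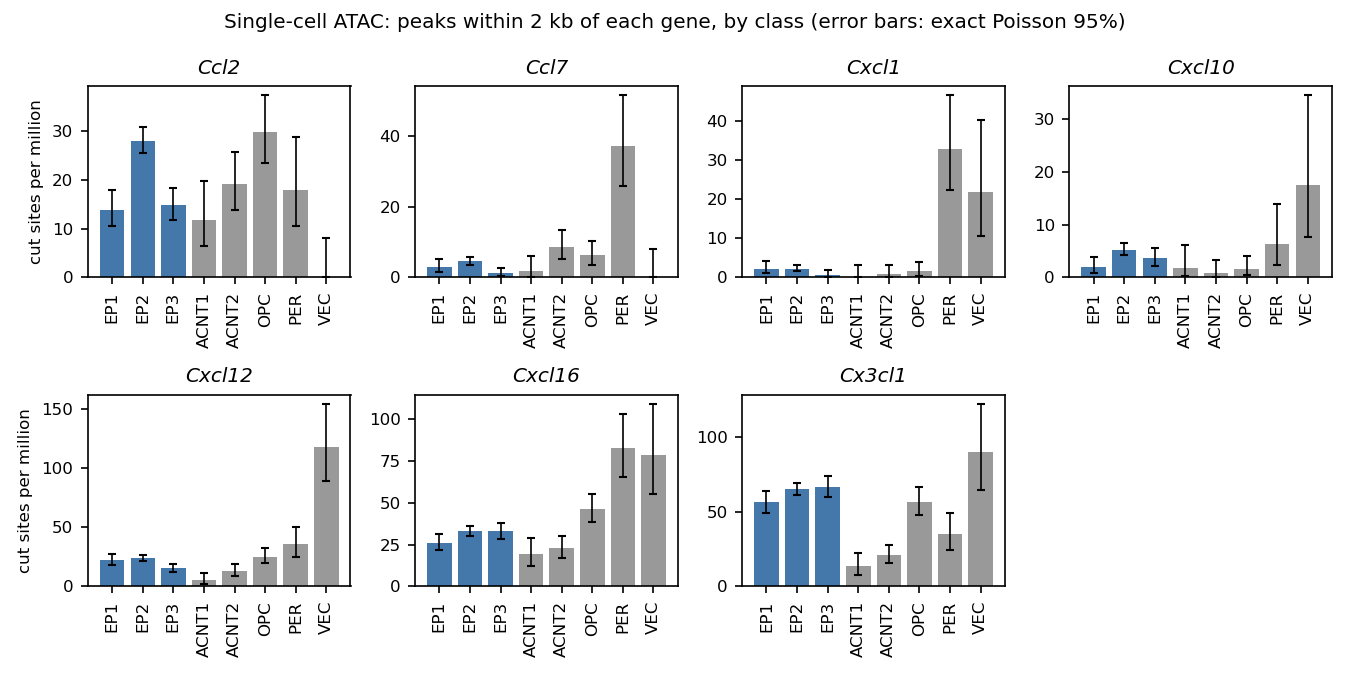
Cut sites (CPM, vertical axes with their own scales) summed over all peaks within 2 kb of each of 7 chemokine genes, by the authors' class of cell in the 1 single-cell ATAC sample, ependymal classes in blue, with exact Poisson 95% intervals. Cx3cl1 stands at 56.3 to 66.3 in the ependymal classes and 13.5 to 20.9 in the astrocyte classes, and Ccl7 and Cxcl1 are highest in PER.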

How the data were processed

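Bulk RNA values are a signal per gene, normalised counts with 1 decimal in the table that the authors deposited. Neither the counting program nor the scaling is given in the sources used here; the values did not resolve into whole reads, which leaves the depth unknown. For single cells the authors deposited filtered matrices of RNA counts (UMIs) and of ATAC counts (cut sites per peak), each with a table of cells. Per the submitters' processing notes the tools were Bowtie2, SAMtools, deepTools, Cell Ranger and Cell Ranger ATAC, and the build was mm10; no versions are listed. A set of bulk ATAC libraries was not used here, and a few genes are not reported.

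The 8 genes, the gene lists and the tests were chosen with earlier results of these data known. All 12 libraries entered 1 limma fit (version 3.58.1, R 4.3.3) of log2(value + 1) with 6 group means, trended empirical Bayes variances and 11 contrasts. Tests covered 15811 genes, those that reached 10 in 2 or more libraries, and the threshold was a Benjamini-Hochberg adjusted p of 0.05. Fold changes on this scale understate those of low genes. The script was tested on simulated data. Named genes are all 8 members, up to 4 called genes per list and comparison in order of adjusted p, and the 3 tested genes most like each member; some are left out for length.

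Clustering used scanpy 1.11.5 on all 3500 cells, with 2000 variable genes, 30 components, 15 neighbours and Leiden resolution 1, and a marker counted as detected at 25% of a cluster's cells. No doublet caller was run. Intervals are exact Poisson for CPM and Clopper-Pearson for shares, at 95%, and a count of 0 is given the limit of 3 counts. Peaks count as near a gene within 2 kb of either end. Alternatives were a pseudocount of 8, no filter, median-of-ratios factors, quantile normalization, a replicate block, the near-identical pair as 1 library, each library left out, other sets of cells, and windows of 1 and 10 kb. Figures were drawn with matplotlib 3.10.9.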

Additional observations from a re-analysis of the deposited data

Results flagged for a closer look

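The change of 2 chemokine genes after injury differed between genotypes by a test of the difference itself, the interaction term of the limma fit. For Ccl7 this held at 1 dpi (10.25 ± 1.40 on the log2 scale, adjusted p = 0.00831) and at 5 dpi (9.35 ± 1.40, adjusted p = 0.00573). For Ccl2 it held at 5 dpi (8.27 ± 1.15, adjusted p = 0.00453). In each case both injured Foxj1_Olig2_tdT libraries lay above both injured Foxj1_tdT libraries. Ccl7 passed the filter on low values only through injured Foxj1_Olig2_tdT libraries, so its p-values here are descriptive only. The Ccl7 value at 1 dpi missed the threshold without uninjured Foxj1_tdT replicate 2 (adjusted p = 0.0589).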

How the results depend on the processing

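Of 20 gene calls in the 11 bulk comparisons, 12 were ended by none of the 18 settings tried for each, and 0 turned direction under any; of the 360 combinations 314 kept the call and 46 lost it. With the uninjured Foxj1_tdT pair as 1 library, called members numbered 1 between genotypes at 1 dpi, 1 in Foxj1_tdT at 1 dpi, 1 at 5 dpi, and 0 for the 1 dpi interaction. A pseudocount of 8 left 1 member called in Foxj1_tdT at 5 dpi and 2 for the 1 dpi interaction, where Ccl2 was added (4.55, limma adjusted p = 0.0229). The replicate block left 1 in Foxj1_tdT at 1 dpi, where Cx3cl1 had adjusted p = 0.0501. Replicate numbers did not pair the samples: same-numbered deviations correlated at -0.0296 to 0.0222 over 15 pairs of groups. Leaving out 1 library at a time, called members ranged between genotypes from 0 to 1 uninjured, 1 to 2 at 1 dpi and 2 to 3 at 5 dpi, in Foxj1_tdT from 1 to 2 in each of its 3 comparisons, in Foxj1_Olig2_tdT from 2 to 3 at 1 dpi, 2 to 5 at 5 dpi and 0 to 0 from 1 to 5 dpi, and for the interactions from 0 to 2 at 1 dpi and 2 to 2 at 5 dpi. The cause of these moves was not tested beyond the smaller number of libraries.

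Counts over all genes moved with the uninjured pair as 1 library: between genotypes from 1231 to 235 uninjured, 291 to 69 at 1 dpi and 1460 to 839 at 5 dpi. In Foxj1_tdT they went from 4331 to 1755 at 1 dpi, 3642 to 1324 at 5 dpi and 925 to 411 from 1 to 5 dpi, and in Foxj1_Olig2_tdT from 1279 to 719 at 1 dpi. Interactions went from 438 to 42 at 1 dpi (271 with the replicate block) and from 1151 to 224 at 5 dpi. Without 1 library the 1 dpi interaction gave 52 to 872 genes and the 5 dpi interaction 215 to 1762. Between genotypes the counts without 1 library were 239 to 1589 uninjured, 69 to 455 at 1 dpi and 575 to 1818 at 5 dpi, with 575 without Foxj1_Olig2_tdT 5 dpi replicate 2 and 637 without Foxj1_tdT 5 dpi replicate 2. In Foxj1_tdT they were 1764 to 4967 at 1 dpi, 1317 to 4217 at 5 dpi and 225 to 1328 from 1 to 5 dpi, with 225 without its 5 dpi replicate 2. In Foxj1_Olig2_tdT they were 716 to 1716 at 1 dpi, 3011 to 5007 at 5 dpi and 1078 to 2627 from 1 to 5 dpi.

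Of 48 single-cell RNA levels (8 genes by 6 codes) 30 were above 0 in kept cells, 34 in all cells, 25 without cells that had a UMI of an immune marker, and 24 after thinning. The levels outside their counting interval numbered 8, 6 and 10 in turn. Of 56 ATAC levels 53 were above 0 with a 2 kb window, 54 with 10 kb and 52 with 1 kb, and 23 and 8 lay outside their interval under the last 2 windows. With cells of at least 5000 cut sites 53 were above 0 and 0 lay outside. Depth limits the single-cell RNA values of Ccl2, Ccl7, Ccl12, Cxcl1 and Cxcl10, which rest on 1 to 22 UMIs in kept cells.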
